A study of Mus musculus with 4 samples.

Results

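The nuclear-encoded subunits of the mitochondrial respiratory chain, together with the assembly factors that share their gene names, were examined in mouse macrophages cultured with TGFb2 or with PBS. Members were all probe sets annotated with a single gene symbol that begins with Nduf, Sdha, Sdhb, Sdhc, Sdhd, Uqcr or Atp5, or with Cox and a digit. This gave 106 of 12422 probe sets that were not array controls, for 78 genes on 19 chromosomes, and 81 of them (71 genes) were bright enough to be tested. The cells were thioglycolate-elicited peritoneal exudate cells of female BALB/c mice aged 6 to 8 weeks, taken 4 days after the injection. They were kept overnight in serum-free medium with porcine TGFb2 (5 ng, with no volume given) or with the PBS vehicle, and both groups received the same ITS supplement, which holds transferrin, linoleic acid, selenium and iron. Adherent cells, given as more than 95% positive for the macrophage marker F4/80, were lysed for RNA, and each group held 2 arrays. The labels do not say whether a group's arrays came from different cultures or mice, so each p-value rests on array-to-array spread that may be purely technical.

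Oxidative phosphorylation takes electrons from NADH at complex I and from succinate at complex II, passes them through coenzyme Q, complex III and cytochrome c to oxygen at complex IV, and uses the proton gradient built on the way to make ATP at complex V. Most subunits are encoded in the nucleus and imported, while a small core of complexes I, III, IV and V is encoded by mitochondrial DNA, which the rule on gene symbols does not cover. In macrophages the chain is known as a branch point of activation, since inflammatory stimuli favour glycolysis and alternative activation favours respiration. Complex II is shared with the citric acid cycle, where it oxidises succinate.

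Promoter windows of RefSeq (GRCm38.p6, 250 bases before to 50 bases after each start site) were found for 63 of the 78 genes, in 69 windows, and were searched on both strands for motifs of 3 factors known to bind respiratory chain promoters. The NRF1 motif, searched as GCGCA, any base and GCGC, lay in 13 of the 69 windows (18.8%), against 6.38% of the windows of all protein-coding genes and 4.6% of all windows. The YY1 motif AAGATGGC lay in 9 windows (13.0%, against 3.05% and 2.75%), and the ETS motif CCGGAAGT, which GABP binds, in 6 (8.7%, against 5.15% and 3.89%). At least 1 of the 3 was found in 40.6% of the members' windows, against 13.5% and 10.4%, and matches of different motifs did not overlap in any member window. Stretches of 60 bases upstream of the start site are shown, 5′ to 3′, for members of 3 complexes whose values are set out below. Capitals mark NRF1 matches, and the window of Cox6b2 held none of the 3 motifs. The stretches end at the base before the start site, except that of Cox6a1, which runs from 142 to 83 bases before it, and that of Atp5c1 belongs to one of its 2 windows, the other of which held no match.
Sdha, chr13:74350241-74350300, minus strand: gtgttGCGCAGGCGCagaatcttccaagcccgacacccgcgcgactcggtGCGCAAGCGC
Cox6a1, chr5:115349041-115349100, minus strand: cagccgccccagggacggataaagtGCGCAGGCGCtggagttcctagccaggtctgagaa
Atp5c1, chr2:10080433-10080492, minus strand: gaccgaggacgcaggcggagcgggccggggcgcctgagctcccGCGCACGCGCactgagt
Cox6b2, chr7:4753095-4753154, minus strand: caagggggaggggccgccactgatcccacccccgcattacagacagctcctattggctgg
A match is a description of these letters and not a measured binding site.

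With TGFb2 set against PBS, 0 of the 81 members reached an adjusted p under 0.05 (limma's moderated test, Benjamini-Hochberg adjustment over all 7453 probe sets in the fit), 0 higher and 0 lower. Of all tested probe sets 1.17% did, 0.805% higher and 0.362% lower. In 3 tested probe sets, of Cox6a2, Cox6b2 and Atp5g2, the mean signal was above the filter level of 25.1 under TGFb2 and below it under PBS, so they entered the test only through TGFb2 and their means were bound to differ that way. Among the other 78, the smallest adjusted p in limma was 0.242, for Ndufc1. At an unadjusted p under 0.05 there were 4 members, Cox6a2 and Cox6b2, whose direction the filter set, and Ndufc1 and Ndufb5, both with the higher mean under TGFb2. The 4 are 4.94% of the members against 11.7% of all tested probe sets (5.74% higher and 5.94% lower). The groups did not overlap for 26 members (32.1%, against 42.9% of all tested), 17 with TGFb2 above PBS, Cox6a2 and Cox6b2 among them (21.0% against 21.1%), and 9 with TGFb2 below PBS (11.1% against 21.8%). Differences are given as log2(signal + 15), TGFb2 minus PBS. Their median over the 81 members was 0.08, with quartiles of -0.09 and 0.22, beside a median of 0.00 and quartiles of -0.20 and 0.19 over all tested probe sets. Without the 3 probe sets that the filter admitted through TGFb2 the median was also 0.08, with 49 of 78 differences above 0. Differences above 0 made up 52 of 81 (64.2%), against 49.8% of all tested probe sets, and 2 members (2.47%, against 2.46%), Cox6a2 and Cox6b2, differed by at least 2-fold. For the 41 members at or above the members' own median signal 32 differences were above 0, with a median of 0.11, beside 589 of 1072 and a median of 0.03 for all tested probe sets at or above that signal. Relative to the PBS mean, the median of those 41 members was 0.24 on TGFb2 replicate 1 and 0.03 on TGFb2 replicate 2. On the PBS arrays it was -0.045 and 0.045. A p that misses the threshold does not show equal levels, so the 95% interval of each difference was read as well. That interval lay within a 2-fold change either way for 75 of 81 members (92.6%, against 82.2% of all tested probe sets), and within 1.5-fold either way for 38 (46.9% against 29.5%). The members were brighter, with a median signal of 561 against 119, and these shares are not matched for signal. At or above the members' median signal, the interval lay within 2-fold for 41 of 41 members and for 974 of 1072 of all tested probe sets. The 6 members whose interval reached past 2-fold were 4 dim probe sets, of Cox6b1, Atp5pb, Atp5g2 and Ndufa3, and those of the isoform genes Cox6a2 and Cox6b2.

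**Figure D1:**
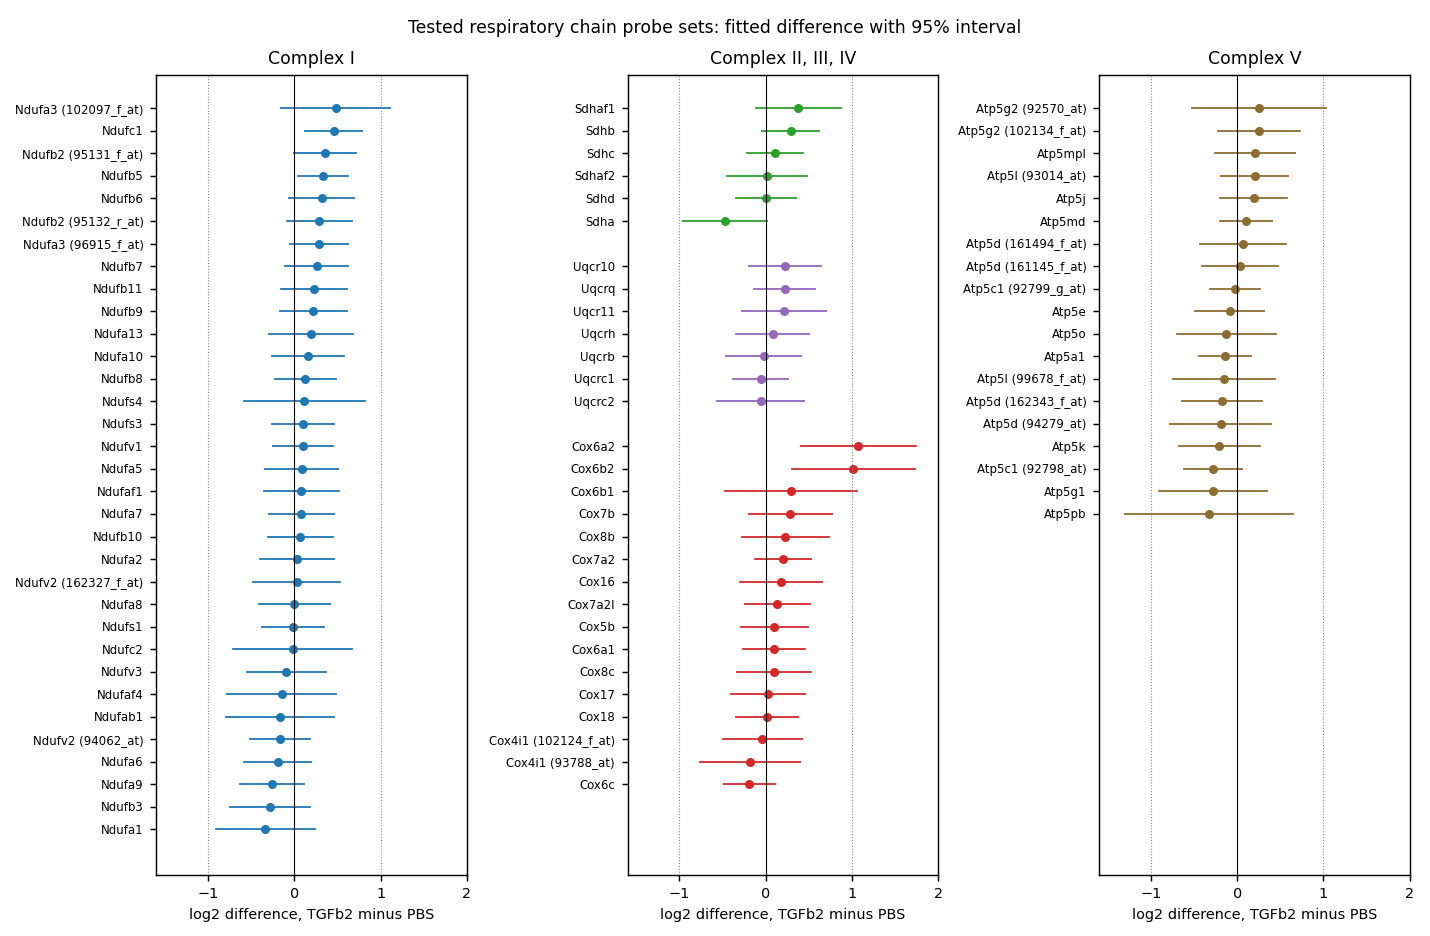
Fitted log2 difference (TGFb2 minus PBS, x axis) of each of the 81 tested respiratory chain probe sets with its 95% interval, by complex. Dotted lines mark a 2-fold change. Most intervals cover 0, and only Cox6a2 and Cox6b2 have estimates past 2-fold.

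**Figure D2:**
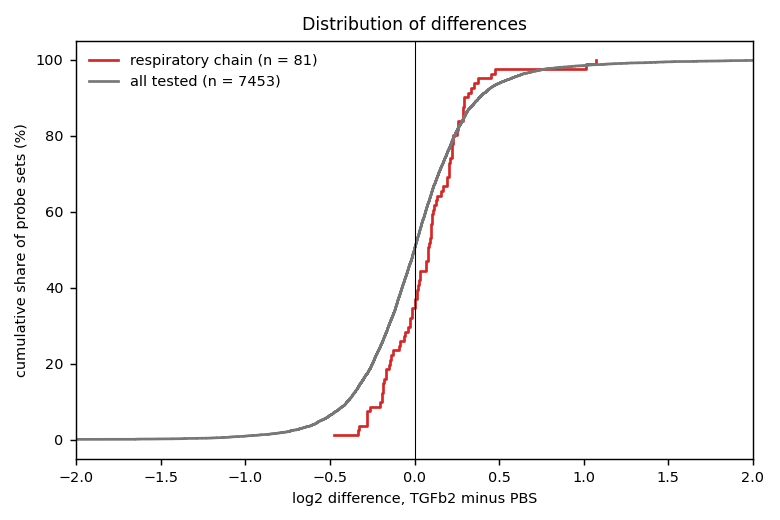
Cumulative share of probe sets (y axis, %) by log2 difference (TGFb2 minus PBS, x axis) for the 81 respiratory chain probe sets and all 7453 tested probe sets. The respiratory chain curve is steeper, with a median of 0.08 against 0.00. Its probe sets are also brighter, with a median signal of 561 against 119.

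The members' levels differed between arrays of a group. Against the mean of the PBS arrays, the median member stood at 0.19 on TGFb2 replicate 1 and at -0.04 on TGFb2 replicate 2, beside -0.05 and 0.05 on the PBS arrays, all on the log2 scale. Replicate 1 of TGFb2 stood above both PBS arrays, and TGFb2 replicate 2 lay between them. The median difference of 0.08 was smaller than the SD of 0.126 between replicates of the members' median level. For 45 of the 81 members (55.6%) the highest signal of the 4 arrays was on TGFb2 replicate 1, where that array was highest for 31.5% of all tested probe sets. The members' median difference was 0.19 without TGFb2 replicate 2 and -0.04 without TGFb2 replicate 1, with 60 and 35 of 81 members above 0. Over all tested probe sets the log2 signals had a Pearson correlation of 0.967 within TGFb2, 0.978 within PBS and 0.953 to 0.966 across groups, and the deposited signals had medians of 45.7 and 40.1 on the TGFb2 arrays and 43.5 and 40.6 on the PBS arrays.

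**Figure D3:**
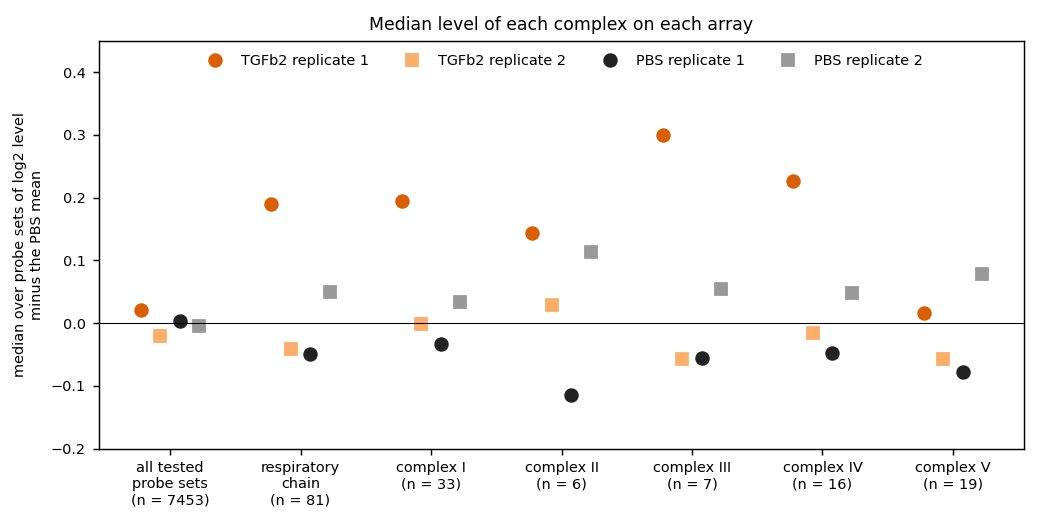
Median over probe sets of the log2 level minus the PBS mean (y axis) on each of the 4 arrays, for all tested probe sets, the respiratory chain and complexes I to V. TGFb2 replicate 1 is the highest array for the respiratory chain (0.19) and TGFb2 replicate 2 (-0.04) lies between the PBS arrays (-0.05 and 0.05).

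Macrophage markers were present on every array. All 10 macrophage genes on the array were above the level filter, and their summed signal was 27999.9 and 27966.3 on the TGFb2 arrays, against 25019.1 and 25469.9 on the PBS arrays, with 0 of 10 past the threshold. Single macrophage genes differed more than the sum, with Fcgr1 at 1.135 (limma adjusted p = 0.0666), Mertk at 0.78 and Itgam at 0.73. Adgre1, Cd14 and Lyz2 lay below 0. Of 13 fibroblast and mesothelial genes 9 were tested, of which the collagen gene Col1a1 rose (log2 difference 1.29, limma adjusted p = 0.0215) and the matrix proteoglycan gene Dcn fell (-1.63, limma adjusted p = 0.0265), with sums of 1587 to 1807 under TGFb2 and 1712 to 2404 under PBS. Of 9 neutrophil genes 3 were tested and the calgranulin S100a8 rose (1.80, limma adjusted p = 0.0244). The neutrophil sums were 764 and 848 under TGFb2 and 320 and 374 under PBS. S100a8 alone gave 551 and 679 of these under TGFb2 and 129 and 211 under PBS, so the higher sums mainly reflect that gene. The other tested genes, Camp and Elane, differed by 0.30 and 0.06 and did not pass. The neutrophil surface gene Ly6g had 7.0 and 10.8 under TGFb2 and 9.0 and 11.7 under PBS. The sum over 7 eosinophil and mast cell genes was higher on both TGFb2 arrays, at 284.5 and 213.8, against 173.7 and 135.7 under PBS. Sums overlapped between groups for B cells (400.3 and 368.1 under TGFb2, 330.5 and 379.5 under PBS), for T and NK cells (66.4 and 75.5 under TGFb2, 99.2 and 49.9 under PBS) and for erythrocytes (114.9 and 62.6 under TGFb2, 73.2 and 34.1 under PBS), and 0 genes of these 4 lists passed the threshold. No marker was listed at 0. Mesothelial genes lay on both sides of the filter, with Upk3b at 43.2 to 92.9 and Wt1 at 18.6 to 35.3 over the 4 arrays but Msln at 2.9 to 8.0. Of the T and NK cell genes Cd4 (14.3 to 52.8) was tested and the other 7 lay under the filter, the T cell receptor gene Cd3e at 7.6 to 11.8. The part of such cells in the respiratory chain values was not tested, and in bulk RNA fewer cells of a type and less RNA per cell cannot be told apart.

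Complex I, which oxidises NADH, had 33 tested probe sets for 30 genes, with 22 differences above 0 and 11 below, a median of 0.08 and 0 past the threshold. Its nuclear-encoded core subunits, which carry the flavin and iron-sulfur clusters, had intervals that all covered 0. Ndufv1, which binds NADH and the flavin, had signals of 1244 and 1537 on the TGFb2 arrays and 1266 and 1320 on the PBS arrays, a log2 difference of 0.10 with a 95% interval from -0.25 to 0.45. Ndufs1, the largest core subunit, gave nearly the same signal on all 4 arrays, with 371 and 376 under TGFb2 and 373 and 383 under PBS (difference -0.02, interval -0.38 to 0.34). The groups overlapped for both genes. Ndufs3, of the part that leads electrons to coenzyme Q, had 667 and 581 under TGFb2 and 580 and 583 under PBS (0.10, interval -0.26 to 0.46). The probe sets of Ndufv2, an iron-sulfur subunit, differed in sign. One had 623 and 662 under TGFb2 and 685 and 763 under PBS without overlap (-0.17), and the other 65.5 and 53.5 under TGFb2 and 53.6 and 62.3 under PBS with overlap (0.03).

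The members of complex I with the largest positive differences were accessory subunits of the membrane arm, the part that pumps protons. Ndufc1, a small accessory subunit of that arm, had signals of 1100 and 1055 on the TGFb2 arrays and 747 and 819 on the PBS arrays. Both TGFb2 arrays stood above both PBS arrays, and the difference of 0.45 ± 0.14 (SE), a 1.37-fold ratio with an interval from 1.09 to 1.72, had an adjusted p of 0.242 in limma. A pair of probe sets of Ndufa3 differed by 0.48, with 58.6 and 53.9 under TGFb2 and 26.6 and 47.9 under PBS, and by 0.29, with 1201 and 1031 under TGFb2 and 914 and 903 under PBS. Ndufb2 had a pair of probe sets too, at 0.35 and 0.29, and the first read 1351 and 1093 under TGFb2 and 927 and 971 under PBS. In each of these 4 probe sets the groups did not overlap, and limma's adjusted p lay between 0.437 and 0.561. Ndufb5, singled out after its values were seen because its unadjusted p was 0.028, had 2474 and 2543 under TGFb2 and 1887 and 2098 under PBS (0.33, interval 0.05 to 0.62, limma adjusted p = 0.348). Of other subunits in that arm, Ndufb6, Ndufb7 and Ndufb9 differed by 0.32, 0.26 and 0.22, also without overlap, and Ndufb10 by 0.07 with overlap. The gap for Ndufb9 was narrow, with 564.5 on TGFb2 replicate 2 and 564.1 on PBS replicate 2.

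At the other end, Ndufa1, a membrane-arm subunit encoded on the X chromosome, had signals of 52.5 and 34.4 under TGFb2 and 60.1 and 55.6 under PBS, a difference of -0.34 (interval -0.90 to 0.24), without overlap. Ndufb3, also of the membrane arm, had 559 and 393 under TGFb2 and 540 and 607 under PBS (-0.28), and its groups overlapped. Ndufa9, an accessory subunit near the coenzyme Q site, had 575 and 697 under TGFb2 and 753 and 770 under PBS (-0.26, interval -0.63 to 0.11), without overlap. The limma adjusted p of these 3 genes lay between 0.596 and 0.668. The assembly factors Ndufaf1 and Ndufaf4 differed by 0.08 and -0.14.

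Divided by position in the complex, a split made after the values were seen, the 18 membrane-arm probe sets (16 genes) had a median difference of 0.23, and the 12 matrix-arm probe sets (11 genes) a median of 0.03. The groups did not overlap, with TGFb2 above PBS, in 12 of the 18 membrane-arm probe sets, and in 0 of the 12 of the matrix arm, where 21.1% of all tested probe sets were of that kind. With TGFb2 below PBS there was 1 such membrane-arm probe set and there were 3 of the matrix arm. The membrane-arm median was above 0 on both TGFb2 arrays, 0.35 on TGFb2 replicate 1 and 0.11 on TGFb2 replicate 2 relative to the PBS mean, so that it was 0.11 without replicate 1 and 0.35 without replicate 2. The matrix arm, which holds the NADH site and the iron-sulfur chain, had 0.05 and -0.11 on the TGFb2 arrays. The difference between the arms was not tested, and no single probe set of either arm passed. Promoter windows with at least 1 of the 3 motifs numbered 4 of 15 for membrane-arm genes and 6 of 12 for matrix-arm genes.

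**Figure D4:**
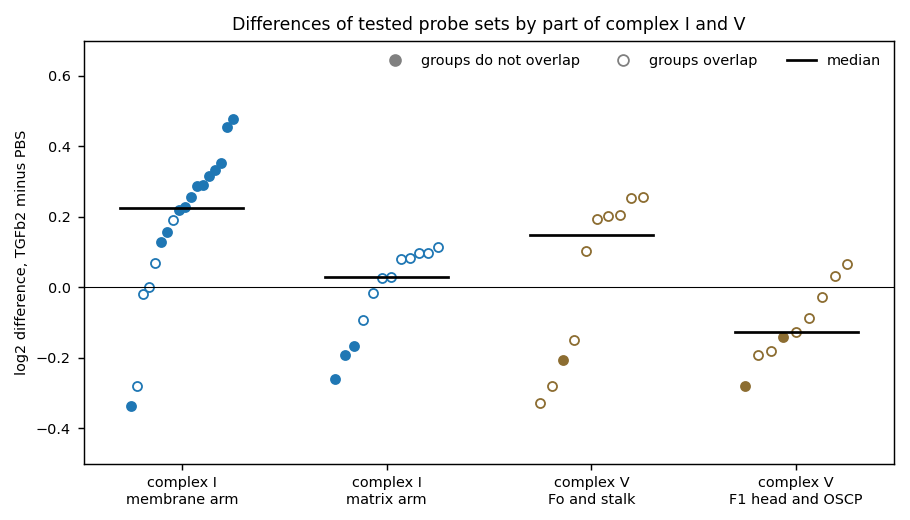
Log2 difference (TGFb2 minus PBS, y axis) of the tested probe sets by part of complexes I and V. Filled points are probe sets whose TGFb2 and PBS arrays do not overlap, open points are those that overlap, and bars are medians, 0.23 and 0.03 for the arms of complex I and 0.15 and -0.13 for the parts of complex V.

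Complex II, or succinate dehydrogenase, has 4 subunits, all encoded in the nucleus and all measured here. Sdha, the flavoprotein that oxidises succinate, had the most negative difference of all 81 members, with signals of 56.7 and 76.9 on the TGFb2 arrays and 103 and 93.0 on the PBS arrays. Both TGFb2 arrays lay below both PBS arrays, and the difference was -0.47 ± 0.21 (SE), a ratio of 0.72 with an interval from 0.51 to 1.01 (limma adjusted p = 0.437). Sdhb, the iron-sulfur subunit bound to Sdha, stood the other way, with 1121 and 1148 under TGFb2 and 873 and 982 under PBS (0.29 ± 0.14, limma adjusted p = 0.492). The membrane anchors overlapped between groups. Sdhc had 1372 and 1226 under TGFb2 and 1250 and 1154 under PBS (0.11), and Sdhd had 1243 and 1289 under TGFb2 and 1140 and 1397 under PBS (0.00, interval -0.34 to 0.35). Among the assembly factors, Sdhaf1, which serves the iron-sulfur subunit, differed by 0.38 (196 and 215 under TGFb2, 128 and 186 under PBS, limma adjusted p = 0.552), and Sdhaf2, which serves the attachment of flavin to Sdha, by 0.02. The promoter of Sdha shown above held 3 NRF1 matches in its window, 2 of them in the stretch printed, and that of Sdhb held none.

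Complex III passes electrons from coenzyme Q to cytochrome c, and its 7 tested genes all had groups that overlapped. Uqcrc1 and Uqcrc2, the large core proteins, differed by -0.06 each, with 1054 and 1113 under TGFb2 and 1087 and 1170 under PBS for Uqcrc1, and 247 and 233 under TGFb2 and 203 and 309 under PBS for Uqcrc2. Among the small subunits, Uqcrq read 2332 and 1947 under TGFb2 and 1666 and 2003 under PBS (0.22), Uqcr10 read 1047 and 767 under TGFb2 and 789 and 746 under PBS (0.22), and Uqcr11 read 919 and 629 under TGFb2 and 596 and 721 under PBS (0.21). In these 3 genes TGFb2 replicate 1 was the highest of the 4 arrays and TGFb2 replicate 2 stood between the PBS arrays. Uqcrb differed by -0.02 and Uqcrh by 0.08, and limma's adjusted p for the complex lay between 0.642 and 0.98. The complex median stood at 0.30 on TGFb2 replicate 1 and at -0.06 on TGFb2 replicate 2.

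Complex IV, cytochrome c oxidase, reduces oxygen, and several of its nuclear subunits exist as a widely expressed form and a form typical of muscle or testis. The pair with the largest differences among all members belonged to the restricted forms. Cox6a2, the muscle form of subunit VIa, had signals of 50.4 and 58.8 on the TGFb2 arrays and 12.7 and 24.3 on the PBS arrays. Cox6b2, the testis form of subunit VIb, had 65.9 and 39.8 on the TGFb2 arrays and 21.9 and 14.5 on the PBS arrays in its tested probe set. In both genes the TGFb2 arrays stood above the PBS arrays, whose means of 18.5 and 18.2 lay under the filter level of 25.1, so both entered only through the TGFb2 group and their differences are a description. These were 1.07 for Cox6a2 and 1.01 for Cox6b2, and neither passed the threshold. The size depended on the pseudocount, from 0.55 to 1.43 for Cox6a2 and from 0.52 to 1.34 for Cox6b2 with pseudocounts of 60 and 4. The other probe sets of Cox6b2 were too dim to test, with at most 10.9 on any array.

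Their widely expressed partners overlapped between groups. Cox6a1 had 2300 and 2468 under TGFb2 and 1938 and 2556 under PBS, a difference of 0.10 (interval -0.26 to 0.46). Cox6b1, measured by a dim probe set, had 113 and 48.3 under TGFb2 and 53.4 and 63.9 under PBS (0.29, interval -0.47 to 1.06), and its high value was on TGFb2 replicate 1 alone. Of subunit VIIa, the widely expressed Cox7a2 had 2226 and 1875 under TGFb2 and 1705 and 1846 under PBS without overlap (0.20, limma adjusted p = 0.639), and the muscle form Cox7a1 was under the filter with 2.9 to 8.8 on all 4 arrays. Cox7a2l, a related protein that takes part in joining complexes III and IV, differed by 0.13. Of subunit VIII, Cox8a was under the filter at 22.9 and 17.1 under TGFb2 and 20.4 and 14.0 under PBS, the heart and muscle form Cox8b differed by 0.23 in its tested probe set, and the testis form Cox8c by 0.09. These values do not rank the forms by abundance, since probe sets differ in how brightly they report a transcript.

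**Figure D5:**
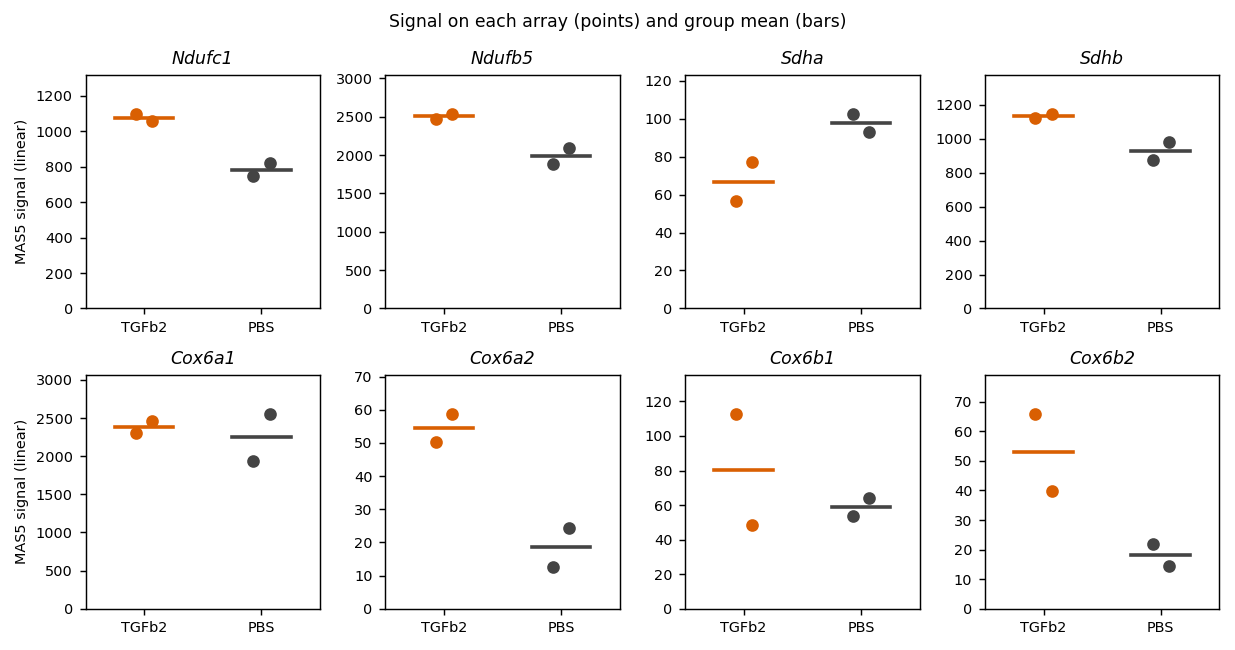
MAS5 signal (y axis, linear, from 0) on each array for 8 members, with TGFb2 left of PBS. Points are arrays and bars are group means. The groups are apart for Ndufc1, Ndufb5, Sdha, Sdhb, Cox6a2 and Cox6b2, and overlap for Cox6a1 and Cox6b1.

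Over complex IV as a whole, 13 of 16 tested probe sets had a difference above 0 and 3 below, with a median of 0.12. Without TGFb2 replicate 1, 7 of 16 lay above 0 and the median was -0.015. The 3 below 0 were Cox6c, a subunit with 1695 and 1562 under TGFb2 and 1812 and 1904 under PBS and no overlap (-0.19, limma adjusted p = 0.628), and the pair of probe sets of Cox4i1, the widely expressed form of the regulatory subunit IV, at -0.18 and -0.04. Cox5b, a zinc-binding subunit, read 1194 and 924 under TGFb2 and 948 and 1010 under PBS (0.10), and Cox7b, encoded on the X chromosome, read 1048 and 693 under TGFb2 and 714 and 681 under PBS (0.28). The assembly factors Cox17, a copper chaperone, and Cox18, which inserts a mitochondrially encoded subunit into the membrane, differed by 0.02 and 0.01, and Cox18 read 448 and 426 under TGFb2 and 428 and 437 under PBS. Cox16 differed by 0.17.

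Complex V, the ATP synthase, had a median whose sign depended on single arrays. Of 19 tested probe sets (13 genes) 8 lay above and 11 below 0, with a median of -0.09 and limma adjusted p between 0.522 and 0.973. The median was 0.035 (11 of 19 above 0) without PBS replicate 2, 0.016 (13 of 19) without TGFb2 replicate 2, and 0.002 with the level filter at the 60th percentile. In the F1 head, which makes ATP, the gamma shaft Atp5c1 had 1049 and 897 under TGFb2 and 1193 and 1169 under PBS in one probe set (-0.28 ± 0.14, limma adjusted p = 0.522), without overlap. Its other probe set, with 1536 and 1596 under TGFb2 and 1573 and 1619 under PBS, differed by -0.03. The catalytic-head subunit alpha, Atp5a1, had 1634 and 1834 under TGFb2 and 1957 and 1862 under PBS without overlap (-0.14, interval -0.44 to 0.16). The 4 tested probe sets of Atp5d, the delta subunit, ran from -0.19 to 0.07, and the epsilon subunit Atp5e differed by -0.09.

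In the membrane part and stalk of complex V the signs were mixed. Atp5g2, one of the genes for the rotating c subunit, differed by 0.25 in the probe set with 364 and 268 under TGFb2 and 236 and 286 under PBS. Its other tested probe set, with 40.5 and 21.6 under TGFb2 and 17.9 and 28.3 under PBS, passed the filter only through TGFb2. In contrast to the first, Atp5g1, another gene for that subunit, had 59.4 and 33.9 under TGFb2 and 63.1 and 53.7 under PBS (-0.28). Atp5l, the g subunit, read 4384 and 3103 under TGFb2 and 3234 and 3173 under PBS in one probe set (0.20) and differed by -0.15 in the other, and Atp5mpl, a small subunit associated with the membrane part, read 3376 and 2221 under TGFb2 and 2554 and 2203 under PBS (0.21). In all 4 of these probe sets of Atp5g2, Atp5l and Atp5mpl that lay above 0, the highest array was TGFb2 replicate 1. Atp5pb, the b subunit of the stalk, had the widest interval of all members, with 59.1 and 14.3 under TGFb2 and 42.0 and 44.9 under PBS (-0.33, interval -1.30 to 0.65). Divided after the values were seen, the 9 probe sets of the F1 head and OSCP had a median of -0.13 and the 10 of the membrane part and stalk a median of 0.15. Without TGFb2 replicate 1 these medians were -0.06 and -0.07, and over all 4 arrays left out in turn they ran from -0.18 to -0.01 and from -0.07 to 0.28.

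The 25 member probe sets under the level filter gave signals from 0.3 to 31.1 and were not tested. They were the sole probe sets of 7 genes, the accessory complex I subunit Ndufa12, the complex IV subunits Cox5a, Cox7a1 and Cox8a, the complex IV assembly factors Cox14 and Cox20, and the ATP synthase subunit Atp5j2. Among 8 genes with several tested probe sets, 3 (Atp5d, Atp5l and Ndufv2) had differences of opposite sign, each with an interval that covered 0.

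Other mitochondrial genes were read from 10 lists, and 0 of their tested probe sets passed the threshold in either direction. Of 14 tested probe sets for electron carriers and coenzyme Q synthesis, 10 lay above 0 (median 0.08), and the complex III subunit cytochrome c1, Cyc1, had 1768 and 1709 under TGFb2 and 1910 and 2060 under PBS (-0.19, limma adjusted p = 0.623), while its other probe set differed by 0.11. Coq7, of coenzyme Q synthesis, differed by 0.22. The most positive difference of the list, singled out after its values were seen, was 0.61 in a probe set of the electron transfer flavoprotein gene Etfb (39.9 and 64.9 under TGFb2, 24.0 and 33.3 under PBS, limma adjusted p = 0.470), and its other probe set differed by 0.02. The 7 further assembly factors had a median of 0.15, with Uqcc1 and Foxred1 at 0.24 each. Of 19 probe sets of the citric acid cycle and pyruvate dehydrogenase, 14 lay below 0 (median -0.08). Idh3g, a subunit of the NAD-dependent isocitrate dehydrogenase, had 284 and 357 under TGFb2 and 438 and 542 under PBS (-0.59, limma adjusted p = 0.261), and citrate synthase, Cs, had 483 and 709 under TGFb2 and 761 and 728 under PBS (-0.34).

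The 25 probe sets of import and quality control had a median of -0.11, and the mitochondrial chaperonin Hspd1 had the largest difference of any gene of the 10 lists, with 549 and 1170 under TGFb2 and 1796 and 1839 under PBS (-1.17, interval -1.87 to -0.46, limma adjusted p = 0.163). Its TGFb2 arrays both lay below PBS but differed from each other, and its other probe set lay the other way, with 166 and 135 under TGFb2 and 108 and 85.6 under PBS (0.57, limma adjusted p = 0.315), so Hspd1 has no settled direction. Tomm40, the import channel, differed by -0.49. In fatty acid oxidation (13 probe sets, median -0.06), the dehydrogenase Acadl had 78.6 and 111 under TGFb2 and 152 and 210 under PBS (-0.84, limma adjusted p = 0.182), and the hydratase Echs1 had 524 on each TGFb2 array and 323 and 392 on the PBS arrays (0.54, limma adjusted p = 0.239). The 65 probe sets of the mitochondrial ribosome had a median of -0.02, with Mrpl54 at -0.64 and Mrpl41 at 0.53.

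The 9 probe sets of nucleotide exchange and outer membrane channels had a median of -0.09, where the channel Vdac2 had 315 and 261 under TGFb2 and 399 and 426 under PBS (-0.50, limma adjusted p = 0.289). The phosphate carrier Slc25a3 had 22.7 and 11.8 under TGFb2 and 26.9 and 45.6 under PBS (-0.67). Its TGFb2 mean of 17.25 lay under the filter level of 25.1, so it entered only through PBS and its direction was set by the filter. For the 13 probe sets of biogenesis regulators and mitochondrial DNA maintenance the median was -0.07, with the GABP subunit Gabpa at -0.31 and the nuclear receptor Ppara at 0.31. Redox defence and uncoupling had 5 of 6 below 0 (median -0.17), with the peroxidase genes Prdx3 and Gpx4 at -0.26 and -0.25. Of the 6 probe sets of mitochondrial dynamics and mitophagy 5 lay below 0 (median -0.09), and the fusion protein gene Mfn1 had 97.4 and 112 under TGFb2 and 238 and 144 under PBS (-0.75, limma adjusted p = 0.269). In the lists other than the electron carriers and the assembly factors the median lay at or below -0.02, while that of the respiratory chain members was 0.08, all beside 0.00 over all tested probe sets. Without TGFb2 replicate 1 the members' median was -0.04, so its sign depended on that array. Relative to the PBS mean, the nucleotide exchange list stood at -0.004 on TGFb2 replicate 1 and -0.279 on TGFb2 replicate 2. The redox list varied less, at -0.162 and -0.129. These medians were not tested against each other.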

How the data were processed

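RNA of 4 samples, 2 per group, was labelled with biotin and hybridised to Affymetrix arrays. The authors deposited a table of linear intensities, 1 per probe set and array, named as MAS5 output in the submitters' processing notes. The software version was not given in the sources used here, and detection calls were not used. The number of arrays limits the precision.

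Symbols came from the platform annotation, and all 78 members matched the GRCm38.p6 table by gene ID with 0 renamed. Control probe sets (66) were left out. Signals were taken to log2(signal + 15), which understates changes of dim genes, and probe sets with a mean at or above the 40th percentile (25.1) were tested. The test was limma's (version 3.58.1, R 4.3.3, lmFit and eBayes with an intensity trend), two-sided, called at a Benjamini-Hochberg adjusted p under 0.05. Median SE was 0.21, or 0.18 for the members. Probe sets ending in _f_at, _s_at, _r_at or _i_at can share probes with related genes.

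Members and lists were chosen with earlier results of these data known. Named were, in each complex, the 3 largest differences either way, genes with probe sets of opposite sign, isoform pairs and core subunits. Other members are named as illustration. From each further list the 2 genes with the largest differences were named, each gene by its probe set of highest mean signal. Alternatives covered pseudocount, normalization, filter, variance model, replicate block and leaving out each array.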

Additional observations from a re-analysis of the deposited data

How the results depend on the processing

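No respiratory chain probe set passed under any of 13 alternatives (pseudocount, normalization, filter, variance model, replicate block, each array left out). In the 4 that leave out an array, 1 group is a single array assumed to vary like the other group. Among the 78 members with both group means above the filter level, an alternative chosen after seeing the data, the median was 0.081 and the lowest adjusted p in any setting was 0.124, for Ndufc1 with the replicate block. Of 420 comparisons of 48 named probe sets with all 4 arrays kept, 416 moved by less than 1 standard error. The other 4 were Cox6a2 and Cox6b2 with pseudocounts of 4 and 60. Changes of filter, variance model or replicate block leave a probe set's difference as it was, so their agreement was fixed in advance. Only the pseudocount and normalization settings could move a difference. Leaving out an array kept 160 of 192 within 1 standard error. The members' median ran from -0.04 to 0.19 when each array was left out. The complex medians then ran from -0.001 to 0.194 (I), -0.002 to 0.157 (II), -0.058 to 0.300 (III), -0.015 to 0.255 (IV) and -0.105 to 0.035 (V), and those of I, III and IV were lowest without TGFb2 replicate 1. With the filter at the 60th percentile that of complex V was 0.002. Over all probe sets, calls numbered 87, against 6 without the filter, 13 without the trend, and 11 to 50 when each array was left out. Replicate numbers pair the arrays by number alone, and the replicate 1 deviations of both groups correlated at 0.142. With the replicate block 324 probe sets were called, 0 of them members. The causes were not tested. The dim members are those with the widest intervals.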

Other observations

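Annotated with several symbols, and so outside the members, were 11 further probe sets of these gene families, of which 10 were tested and 0 passed. Those that list Ndufs6, an accessory subunit of the matrix arm of complex I, with its copy Ndufs6b had signals of 751 and 767 under TGFb2 and 504 and 583 under PBS (0.47, limma adjusted p = 0.263), and of 992 and 886 under TGFb2 and 725 and 813 under PBS (0.28). The one that lists Ndufb4, of the membrane arm, with its copies differed by -0.24. The probe sets of Ndufs6 and Ndufb4 run against the order of the arms among the members. Those that list the membrane-arm subunits Ndufs5 and Ndufa11, each with a copy, lay above 0, at 0.23 and 0.10. The one that lists Atp5c1 with its pseudogene differed by 0.18, where the members for Atp5c1 differed by -0.28 and -0.03. The probe sets that list the complex IV subunit Cox7c with Gm12338 differed by 0.16 and 0.82, the second with 6193 and 3773 under TGFb2 and 3455 and 2166 under PBS (limma adjusted p = 0.279). Such probe sets cannot tell a gene from its copy.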
